A study of Mus musculus with 27 samples.

Results

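Conjugating enzymes attach glutathione, glucuronic acid or sulfate to reactive or fat-soluble molecules. The genes described here are the 60 measured genes whose symbol starts with Gst (21 glutathione S-transferases), Ugt (20 UDP-glycosyltransferases) or Sult (19 sulfotransferases), out of 20239 named probe sets; 1 pseudogene, Gstp-ps, was left out. They were measured in RNA of the right lung of female mice aged 11 weeks, 3 animals for each of 9 inbred strains, on 27 Mouse Gene 1.0 ST arrays. A/J, DBA/2J and C57BL/6J carry the label of increased spontaneous pulmonary adenoma severity and increased frequency. BALB/cJ, C57L/J, C3H/HeJ and 129S1/SvlmJ are labelled increased in severity and decreased in frequency, and MRL/MpJ and KK/HlJ are labelled decreased in both. The class belongs to the strain, and a strain is 1 inbred genotype. The comparisons ask which of these enzymes differ among lungs of young mice of different strains, and whether they differ between strains of the adenoma classes.

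In lung, club cells of the airways hold much of the enzyme machinery that activates inhaled chemicals, and conjugation follows that activation. Glutathione transferases join glutathione to electrophiles, among them products of lipid peroxidation. UDP-glucuronosyltransferases use a sugar donor made by Ugdh, and cytosolic sulfotransferases use a sulfate donor made by the Papss enzymes. Members of these families also act on the body's own steroids, bile acids, bilirubin or catecholamines, mainly in liver.

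Values are the deposited normalised log2 signals, so a difference of 1 is a doubling of signal. The arrays read as lung: the mean of 10 alveolar type II cell genes lay between 11.16 and 11.61 on each array and that of 8 club cell genes between 10.27 and 11.22. Female mice have no Y chromosome, so probe sets for Y-linked genes gave the background: their strain means reached 5.25 for Sry and 3.56 for the other 6 of the 7 measured. By this measure 29 of the 60 genes had a strain mean above every Y-linked gene, namely 19 of 21 Gst, 6 of 20 Ugt and 4 of 19 Sult genes. With Sry set aside 40 were above, namely 21 Gst, 11 Ugt and 8 Sult genes. Differences among genes at or near this background are given as measured and may not reflect transcript levels. Whether sequence differences between strains under the probes changed any signal was not tested. The run numbers in the array names follow the strains, so run order and strain cannot be told apart, and the tissue is whole lung, so fewer cells of a type and less RNA per cell cannot be told apart either.

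KK/HlJ replicate 3 stood apart and touches several results. Its mean over 10 hepatocyte genes was 7.32, against 4.33 to 6.17 on the other 26 arrays, and 9 of the 10 genes were highest there, Apoa1 being the exception. Alb, serum albumin, read 9.84 on this array and at most 9.72 on the others, while Apoa2, an apolipoprotein, read 8.81 and at most 6.49. A/J replicate 1 had the next list mean, 6.17. Of the 60 conjugating enzymes 13 were highest on KK/HlJ replicate 3, and Sult2a8, Gstm3 and Gstp3 exceeded every other array by at least 1 there. Of all 20239 named genes 41 exceeded every other array by at least 1 there, and the share of all genes highest on this array was not computed. C3H/HeJ replicate 2 was the other array of this kind: the mean of 10 skeletal muscle genes reached 9.10 on it, while no array of the other 8 strains was above 5.41. Results that rest on these arrays are given with and without them.

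Among the 9 strains 17 of the 60 genes differed by limma's moderated F test at an adjusted p under 0.05, against 28.9% of all genes, which is near the members' share. They were 9 of 21 Gst, 5 of 19 Sult and 3 of 20 Ugt genes. Of the 29 above every Y-linked gene 13 passed, against 36.8% of all genes above that level. The median range from the lowest to the highest strain mean was 0.45 over the 60 genes and 0.34 over all genes. In at least 1 of the 36 strain pairs 5 genes passed with a difference of at least 1, against 4.27% of all genes. These were Gstm3 in 6 pairs, Sult1d1 in 5, Gsto1 in 4, Ugt1a6b in 2 and Gstp3 in 1. Without KK/HlJ replicate 3 the number past the F test was also 17 (29.5% of all genes), with Ugt1a7c lost (adjusted p = 0.051) and Ugt2b5 gained (0.019), and Gsto1, Sult1d1 and Ugt1a6b were the 3 left in a pair (4.31% of all genes).

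**Figure D1:**
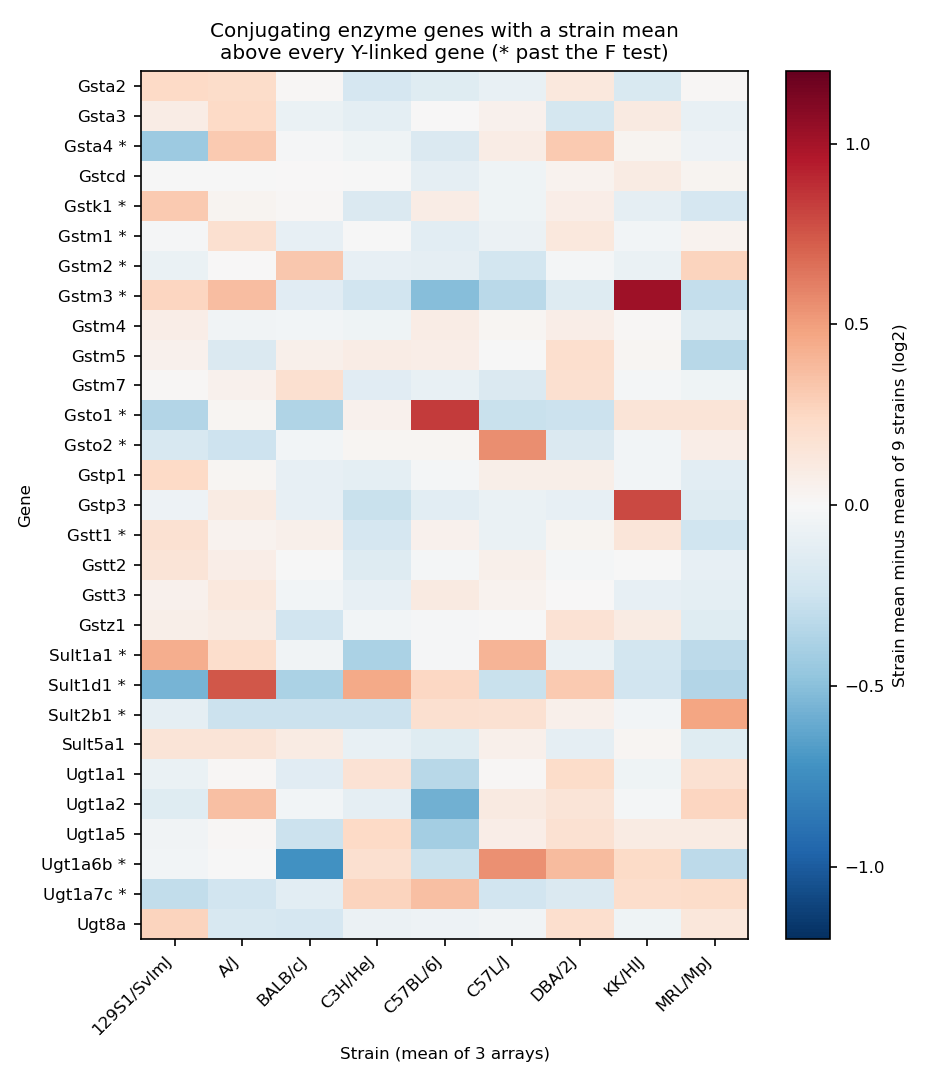
Strain mean minus the mean of the 9 strains (colour, log2 units) for the 29 genes with a strain mean above every Y-linked gene, with strains as columns; an asterisk marks the genes past the F test. The strongest colours are single cells, such as Gsto1 in C57BL/6J, Sult1d1 in A/J, Ugt1a6b low in BALB/cJ, and Gstm3 and Gstp3 in KK/HlJ, where replicate 3 stood apart.

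Among the glutathione transferases the clearest strain difference was in the omega class. Gsto1 encodes an omega transferase that reduces dehydroascorbate and mixed disulfides. In C57BL/6J its 3 arrays read 9.39, 9.44 and 9.44. The 24 arrays of the other strains lay between 8.04 and 8.86 with a median of 8.46, so the groups did not overlap. The C57BL/6J mean was 9.43 ± 0.028 (SD, n = 3), and the lowest mean, in BALB/cJ, was 8.23 ± 0.12 (SD, n = 3), a 2.29-fold range (limma F test, adjusted p = 6.25e-07). Against the mean of the other 8 strains C57BL/6J was higher by 0.95 (adjusted p = 1.1e-07), and the 4 pairs past a difference of 1 all set C57BL/6J against BALB/cJ, 129S1/SvlmJ, C57L/J or DBA/2J, 2.14-fold to 2.29-fold. Leaving out any single array left this difference between 0.93 and 0.96. The 8 other strain means ran from 8.23 to 8.74 with neighbouring strains overlapping. In BALB/cJ Gsto1 was lower than the rest by 0.40 (adjusted p = 0.0067), a call lost without BALB/cJ replicate 1 (0.33, adjusted p = 0.10). In 129S1/SvlmJ it was lower by 0.39 (adjusted p = 0.0055), a call lost without 129S1/SvlmJ replicate 1 (0.29, adjusted p = 0.094) or 2 (0.37, adjusted p = 0.0505). In C57L/J it was lower by 0.30 (adjusted p = 0.045), a call lost in 16 of the 27 fits that left out an array, with adjusted p of up to 0.30. In C57BL/6J, 5 of 10 alveolar type II genes were also higher than in the other strains, and their part in the result was not tested.

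The promoter of Gsto1 is shown because this gene had the smallest adjusted p of the 60. It lies on the plus strand at chr19:47854723-47854972 of GRCm38.p6, the 250 bases before the start of the RefSeq transcript, in the C57BL/6J reference genome. Both strands were searched for the antioxidant response element core TGACNNNGC, the xenobiotic response element core GCGTG, the TATA box TATAAA and the HNF1 core GTTAAT, with matches to be set in capitals. Such windows held them in 10.2%, 28.2%, 12.4% and 6.43% of all 32851 RefSeq promoters, and in 3, 11, 11 and 12 of the 53 conjugating enzyme genes with a promoter entry. These genes have 65 promoters, and a gene counted if any of its promoters matched. The counts of genes and the shares of promoters are therefore not on the same unit. None of the 4 matched in Gsto1.
Gsto1: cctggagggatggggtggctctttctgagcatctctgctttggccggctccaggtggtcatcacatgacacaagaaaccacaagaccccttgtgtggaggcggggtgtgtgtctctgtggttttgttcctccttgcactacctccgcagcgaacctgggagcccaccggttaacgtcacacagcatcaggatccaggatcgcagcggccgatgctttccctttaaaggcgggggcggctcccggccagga

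Gsto2 lies next to Gsto1 on chromosome 19 and encodes the other omega transferase, also a dehydroascorbate reductase. Its strain order was different. C57L/J was highest, with arrays at 6.45, 5.99 and 6.31 above the 24 others, which lay between 5.22 and 5.94. Gsto2 was higher in C57L/J than in the other strains by 0.62 (adjusted p = 3.3e-04), a call that held in each fit that left out an array. Across the 9 strain means the correlation of Gsto1 with Gsto2 was -0.0037, as a description of strain means that share the same arrays.

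The alpha class transferase Gsta4, which conjugates hydroxynonenal from oxidised lipids, was lowest in 129S1/SvlmJ. The 129S1/SvlmJ arrays read 9.64, 9.44 and 9.52, below the 24 others at 9.75 to 10.49. Its strain means ran from 9.54 ± 0.10 in 129S1/SvlmJ to 10.29 ± 0.16 in DBA/2J and 10.29 ± 0.19 in A/J (SD, n = 3 each; F test adjusted p = 5.28e-05), and these 2 highest strains did not differ beyond their spread. In 129S1/SvlmJ the difference from the other 8 strains was -0.50 (adjusted p = 8.77e-05) and held in each fit that left out an array. The calls of higher levels in A/J (0.36, adjusted p = 0.0037) and DBA/2J (0.35, adjusted p = 0.0046) were each lost without 1 array. Without A/J replicate 2 the first difference was 0.25 (adjusted p = 0.12), and without DBA/2J replicate 1 the second was 0.26 (adjusted p = 0.14). Ciliated cell genes were also low in 129S1/SvlmJ, where 8 of 10 were lower and none higher. Their list means there were 6.92 to 7.04 per array against 6.95 to 7.59 elsewhere. BALB/cJ had similar list means of 6.95 to 7.08, with 4 of 10 genes lower and none higher, and a Gsta4 mean of 9.97. The part of ciliated cells in the Gsta4 result was not tested. Gsta2 and Gsta3, the other alpha genes, did not pass (adjusted p = 0.38 and 0.21).

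Gstk1, the kappa class transferase of mitochondria and peroxisomes, had the opposite extreme in 129S1/SvlmJ. Its arrays there read 9.61, 9.57 and 9.65, above the 24 others at 9.06 to 9.42. The mean of 9.61 ± 0.039 was 0.36 above the other 8 strains (adjusted p = 8.07e-05), and MRL/MpJ was lowest at 9.10 ± 0.038 (SD, n = 3 each; F test adjusted p = 1.14e-04). The 129S1/SvlmJ call held in each fit that left out an array. In that strain 4 of 8 alveolar type I cell genes were also higher, with a list mean of 10.53. C57L/J had a list mean of 10.50, with 2 of the 8 genes higher, and a Gstk1 mean of 9.25. The part of these cells in the Gstk1 result was not tested. MRL/MpJ was lower than the others by 0.22 (adjusted p = 0.0078; 0.059 without MRL/MpJ replicate 3), and C3H/HeJ by 0.20 (adjusted p = 0.025; 0.096 and 0.12 without C3H/HeJ replicates 1 and 3).

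The 7 mu class genes lie together on chromosome 3, and 4 of them passed the F test, each highest in another strain. Gstm1 was highest in A/J (10.37 ± 0.068), Gstm2 in BALB/cJ (8.85 ± 0.10), Gstm6 in DBA/2J (5.05 ± 0.075) and Gstm3 in KK/HlJ (SD, n = 3 each). Gstm2 read 8.82, 8.76 and 8.97 in BALB/cJ and 8.80, 8.77 and 8.83 in MRL/MpJ, and C57L/J was lowest at 8.31 ± 0.16 (SD, n = 3; F test adjusted p = 0.0036, at most 0.015 with any array left out). The BALB/cJ difference from the rest, 0.36 (adjusted p = 0.0061), was lost without BALB/cJ replicate 3 (0.31, adjusted p = 0.080). Gstm1 ranged over 0.32 only (F test adjusted p = 0.041), and 13 of the 27 fits that left out an array lost that call, with adjusted p of up to 0.12. Its higher level in A/J (0.21, adjusted p = 0.034) was lost without any 1 of the 3 A/J arrays (adjusted p = 0.064, 0.27 and 0.15). Gstm6 passed the F test with a range of 0.96 (adjusted p = 0.0013) and stayed below the highest Sry mean in every strain. It was lower in C3H/HeJ by 0.54 and in 129S1/SvlmJ by 0.50 and higher in DBA/2J by 0.55 (adjusted p = 0.021, 0.023 and 0.023). Each of these was lost without some array of its own strain: 129S1/SvlmJ replicate 1 (adjusted p = 0.25), C3H/HeJ replicates 1 and 2 (0.14 and 0.068) and each of the 3 DBA/2J arrays (0.090, 0.089 and 0.15). Over the 21 pairs of mu genes the correlation of strain means ran from -0.62 to 0.79, with a median of 0.13. Mu genes are close copies of each other, and how far their probe sets separate them was not tested.

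Gstm3 and Gstp3, a pi class gene on chromosome 19, were highest in KK/HlJ, and their calls there depended on replicate 3. Without that array the KK/HlJ mean was still highest but close to A/J, at 5.75 against 5.74 for Gstm3 and 6.10 against 5.99 for Gstp3. The KK/HlJ arrays of Gstm3 read 5.59, 5.91 and 7.65, while the other 24 lay at 4.54 to 5.87, so the first of them overlapped the other strains. With all arrays Gstm3 was 1.14 higher in KK/HlJ (adjusted p = 0.0027), and in the 6 pairs it was 2.23-fold to 2.89-fold higher. Without replicate 3 the difference was 0.51 (adjusted p = 0.062), no pair was left, and the F test still passed (adjusted p = 0.0029, range 0.90). Gstp3 read 6.05, 6.15 and 7.85 in KK/HlJ and 5.31 to 6.12 elsewhere. It was 0.89 higher in KK/HlJ (adjusted p = 0.0096) with replicate 3 and 0.30 higher (adjusted p = 0.21) without it, and its F test did not pass (adjusted p = 0.12). Gstp1, a pi class transferase, was 0.27 higher in 129S1/SvlmJ (adjusted p = 0.022), a call lost without replicate 2 or replicate 3 of that strain (adjusted p = 0.14 and 0.15). The Gstm3 promoter, printed as that of a gene high on the array with hepatocyte genes, lies on the minus strand at chr3:107969175-107969424 of GRCm38.p6 and held none of the 4 motifs.
Gstm3: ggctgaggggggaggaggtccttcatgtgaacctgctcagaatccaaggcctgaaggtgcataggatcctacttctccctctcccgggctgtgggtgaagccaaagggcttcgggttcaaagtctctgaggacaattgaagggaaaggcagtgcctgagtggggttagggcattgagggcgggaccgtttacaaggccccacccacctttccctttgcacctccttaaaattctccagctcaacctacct

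**Figure D2:**
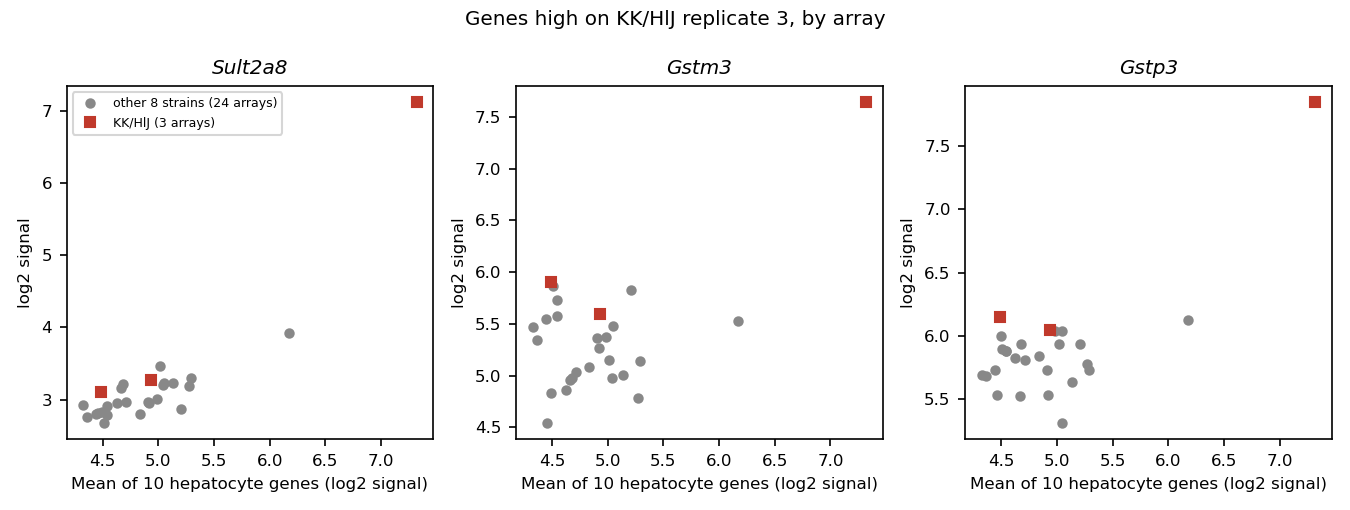
Signal of Sult2a8, Gstm3 and Gstp3 (vertical axis, log2) against the mean of 10 hepatocyte genes (horizontal axis, log2) on each of 27 arrays; squares are the 3 KK/HlJ arrays and circles the 24 others. KK/HlJ replicate 3 lies alone at the upper right at a list mean of 7.32, and for Gstm3 and Gstp3 the other KK/HlJ arrays lie at the upper edge of the remaining arrays.

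Of the theta class genes Gstt1, which acts on small halogenated molecules, ran from 8.65 ± 0.068 in MRL/MpJ to 9.07 ± 0.14 in 129S1/SvlmJ (SD, n = 3 each; F test adjusted p = 0.022). The call was lost without MRL/MpJ replicate 1 or 2 (adjusted p = 0.054 and 0.053), and the lower level in MRL/MpJ, by 0.27 (adjusted p = 0.025), was lost without any 1 of its 3 arrays (adjusted p = 0.12, 0.093 and 0.056). The remaining Gst genes above background, among them Gstz1 of tyrosine breakdown, had ranges of 0.20 to 0.54 and did not pass. Of these, the theta gene Gstt2 came near (F test adjusted p = 0.053). Its 129S1/SvlmJ arrays read 7.22 to 7.24, above the 24 others at 6.85 to 7.19.

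The sulfotransferase that differed most was Sult1d1, which sulfates dopamine and other catechols. A/J read 8.46, 8.45 and 7.95, and C3H/HeJ read 8.18, 7.95 and 7.85. At the other end 129S1/SvlmJ read 6.74, 6.82 and 7.40, and BALB/cJ 6.94, 6.98 and 7.58. The lowest A/J array therefore overlapped C3H/HeJ, DBA/2J and C57BL/6J but lay above all arrays of the 5 other strains. From 6.98 ± 0.36 in 129S1/SvlmJ to 8.29 ± 0.29 in A/J (SD, n = 3 each) the range was 2.47-fold (F test adjusted p = 1.47e-04). A/J was 0.84 higher than the other 8 strains (adjusted p = 0.0010), a call that held in each fit that left out an array. In pairs A/J exceeded 129S1/SvlmJ, BALB/cJ, MRL/MpJ and C57L/J by 1.01 to 1.30, and C3H/HeJ exceeded 129S1/SvlmJ by 1.01. The lower level in 129S1/SvlmJ (-0.63, adjusted p = 0.0098) was lost without its replicate 1 or 2 (adjusted p = 0.11 each). The higher level in C3H/HeJ (0.51, adjusted p = 0.044) was lost in 14 of the 27 fits that left out an array, with adjusted p of up to 0.21, and without replicate 2, the array high in muscle genes, it was 0.53 (adjusted p = 0.14). Club cell genes were also high in A/J, where 3 of 8 were higher and none lower, with list means of 10.97 to 11.22 per array against 10.27 to 11.06 in the other strains. Of 9 alveolar macrophage genes 5 were higher and 1 lower in A/J. The part of these cells in the Sult1d1 result was not tested.

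The Sult1d1 promoter is shown as that of the sulfotransferase with the widest range above background. It lies on the minus strand at chr5:87569007-87569256 of GRCm38.p6. The capitals mark an HNF1 core whose first base is 79 bases before the start, and a xenobiotic response element core on the opposite strand at 47 bases before it.
Sult1d1: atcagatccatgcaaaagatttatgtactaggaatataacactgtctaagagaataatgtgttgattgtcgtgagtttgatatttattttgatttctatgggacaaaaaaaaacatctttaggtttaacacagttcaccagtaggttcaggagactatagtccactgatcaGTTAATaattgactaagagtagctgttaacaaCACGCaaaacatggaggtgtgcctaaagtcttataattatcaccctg

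Sult2b1, which sulfates cholesterol and pregnenolone, was highest in MRL/MpJ. The arrays read 6.22, 6.14 and 6.45 there, above the 24 others at 5.26 to 6.13. The mean of 6.27 ± 0.16 compares with 5.54 ± 0.094 in A/J, 5.54 ± 0.071 in C3H/HeJ and 5.54 ± 0.25 in BALB/cJ (SD, n = 3 each), which did not differ beyond their spread (F test adjusted p = 2.46e-04). MRL/MpJ was 0.54 above the other 8 strains (adjusted p = 3.32e-04), and the call held in each fit that left out an array. In MRL/MpJ 4 of 10 alveolar type II genes were lower and 1 higher, and their part was not tested. Sult1a1, the phenol sulfotransferase, was highest in 129S1/SvlmJ (8.71, 8.48 and 8.70) and C57L/J (8.81, 8.30 and 8.70). It was lowest in C3H/HeJ, where replicate 2, the array high in muscle genes, read 8.34 and the others 7.45 and 7.64 (F test adjusted p = 0.0049, at most 0.014 with any array left out). The higher level in 129S1/SvlmJ (0.49, adjusted p = 0.022) was lost without its replicate 1 or 3 (adjusted p = 0.11 and 0.12). In C57L/J the higher level (0.46, adjusted p = 0.040) was lost in 10 of the 27 fits that left out an array, with adjusted p of up to 0.33.

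Sult5a1, the other sulfotransferase above every Y-linked gene, had strain means of 5.63 to 5.93 and did not pass (F test adjusted p = 0.28). The remaining sulfotransferases had no strain mean above Sry. Sult1b1 and Sult1e1, the latter specific for oestrogens, had strain means of 2.48 to 2.68, below the 3.56 reached by Y-linked genes other than Sry. Of the Sult2a genes, which sulfate bile acids and steroids in liver, Sult2a3 passed the F test (adjusted p = 0.0021) at background level: MRL/MpJ read 3.11, 3.20 and 3.10 against 2.38 to 3.08 elsewhere, 0.56 higher (adjusted p = 1.66e-04). Sult2a8 read 7.12 on KK/HlJ replicate 3 and 2.67 to 3.92 on the 26 others, the highest of which was A/J replicate 1. Its difference between KK/HlJ and the rest was 1.46 (adjusted p = 0.044) with that array and 0.15 (adjusted p = 0.74) without it. The call was lost in 22 of the 27 fits that left out an array, and also under quantile normalisation (adjusted p = 0.0501), median centring (0.054) and a robust prior with an intensity trend (0.084). Sult4a1, the brain form, was 0.35 lower in C57BL/6J (adjusted p = 0.027), a call lost without any 1 of the 3 C57BL/6J arrays (adjusted p = 0.17, 0.090 and 0.087).

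Among the UDP-glycosyltransferases the signal lay in the Ugt1a locus on chromosome 1, where variable first exons are spliced to shared ones: 5 of 7 Ugt1a genes, but 0 of 7 Ugt2b and 0 of 3 Ugt2a genes, had a strain mean above every Y-linked gene. The probe sets of Ugt1a genes may read shared exons, so their levels are uncertain as isoform levels. Ugt1a6b, an enzyme for phenols, read 6.50, 6.95 and 6.75 in BALB/cJ and 8.31, 7.79 and 7.93 in C57L/J. These groups did not overlap, while the 7 strains between them spread from 6.85 to 8.14. The means of 6.73 ± 0.23 and 8.01 ± 0.27 (SD, n = 3 each) differed 2.42-fold (adjusted p = 0.0025), and DBA/2J exceeded BALB/cJ 2.16-fold (adjusted p = 0.0099; F test adjusted p = 0.011). BALB/cJ was 0.82 below the other 8 strains (adjusted p = 0.011), and this call was lost without its replicate 1 (adjusted p = 0.12) or 3 (0.054). Alveolar macrophage genes were lower in BALB/cJ as well, 6 of 9, with a list mean of 7.42 to 7.76 per array against 7.80 to 8.81 elsewhere, and their part was not tested. Ugt1a7c ran from 6.47 ± 0.32 in 129S1/SvlmJ to 7.12 ± 0.15 in C57BL/6J (SD, n = 3 each; F test adjusted p = 0.044), and 20 of the 27 fits that left out an array lost that call, with adjusted p of up to 0.089. Ugt1a1, the bilirubin enzyme, Ugt1a2 and Ugt1a5 were lowest in C57BL/6J but did not pass (adjusted p = 0.17, 0.52 and 0.19). Ugt1a10, at or below 4.44 on every array, was 0.59 higher in MRL/MpJ (adjusted p = 0.015), lost without replicate 1 or 3 (adjusted p = 0.23 and 0.11). Ugt3a1 passed the F test (adjusted p = 0.042) with strain means of 2.73 to 3.17, and its lower level in C57BL/6J (-0.28, adjusted p = 0.023) was lost without any 1 of the 3 C57BL/6J arrays (adjusted p = 0.095, 0.11 and 0.096). Ugt8a, which makes galactosylceramide, did not pass (adjusted p = 0.072).

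**Figure D3:**
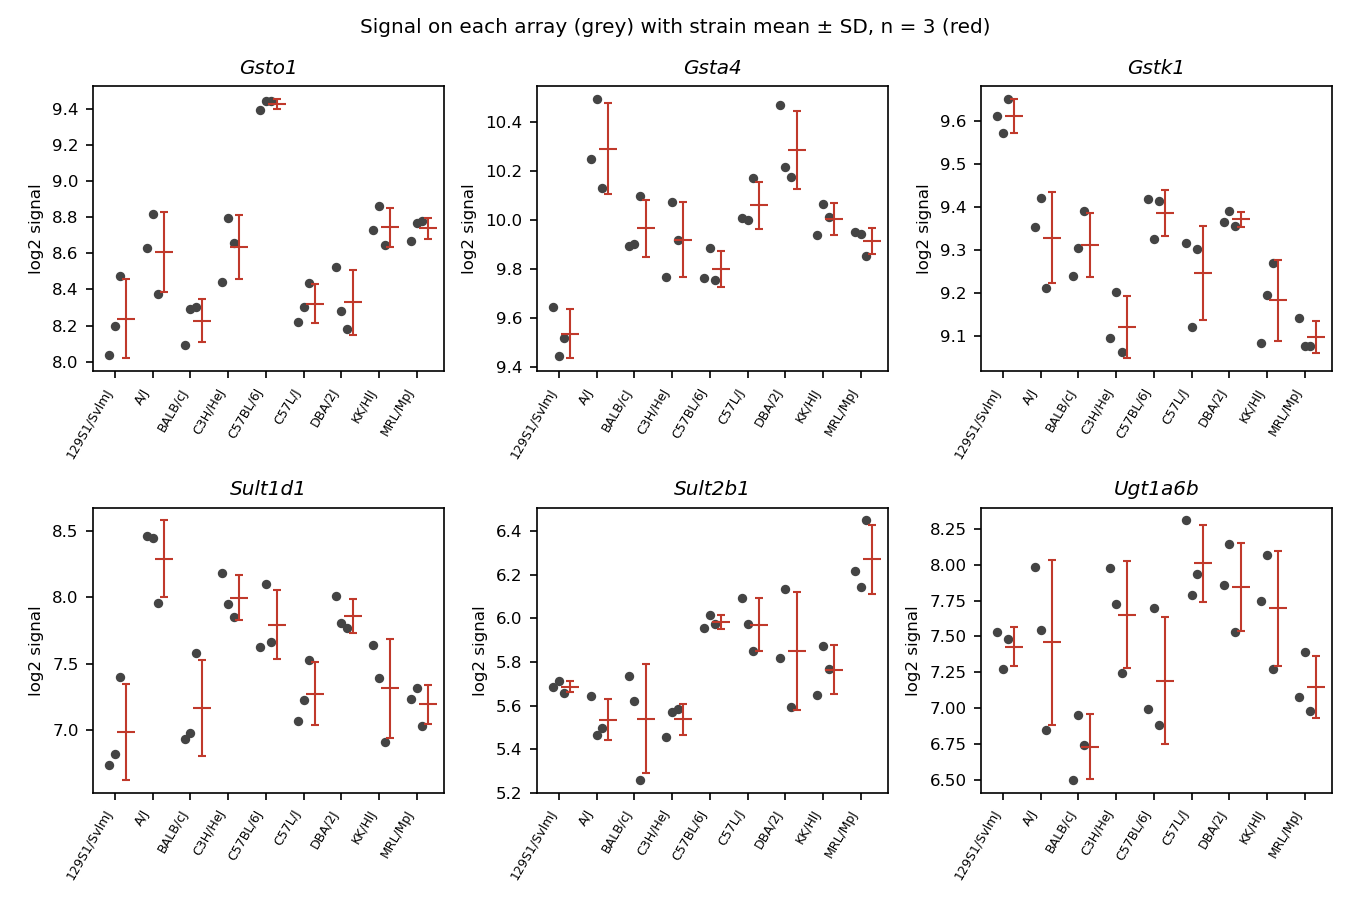
Log2 signal (vertical axis) of 6 genes on each of the 27 arrays by strain (horizontal axis); grey points are arrays and the red bars the strain mean ± SD of 3 arrays. C57BL/6J stands clear of all other arrays for Gsto1, 129S1/SvlmJ for Gsta4 and Gstk1, and MRL/MpJ for Sult2b1, while the strains overlap for Sult1d1 and Ugt1a6b.

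Counted by strain, the genes that differed from the mean of the other 8 strains were few. In 129S1/SvlmJ 5 were higher and 4 lower (all genes 3.54% and 6.43%), and in MRL/MpJ 5 were higher and 2 lower (6.83% and 5.61%). A/J had 3 higher and none lower (1.96% and 3.75%), and DBA/2J had 2 higher and none lower (2.87% and 1.94%). KK/HlJ had 3 higher and none lower (4.55% and 2.83%), namely Sult2a8, Gstm3 and Gstp3. Without KK/HlJ replicate 3 these were lost and 1 other gene, Sult1c2, was called (0.39, adjusted p = 0.045), at a mean of 3.86 over the 2 arrays left. C57BL/6J had 1 higher and 2 lower (4.06% and 4.11%), C57L/J 2 higher and 1 lower (3.69% and 2.94%), BALB/cJ 1 higher and 2 lower (2.48% and 3.01%), and C3H/HeJ 1 higher and 2 lower (4.18% and 3.08%). These counts of 0 to 5 genes were not tested against their backgrounds. Likeness between members was described by the Pearson correlation over the 9 strain means. The member most like Sult1a1 was Gstt2 (0.92), that most like Gstk1 was Gstp1 (0.83), that most like Gsto1 was Ugt1a7c (0.81), that most like Gstm2 was Sult2a3 (0.80) and that most like Ugt1a6b was Gstz1 (0.73). The values of Gstm3 with Gstp3 (0.89) and of Gstp3 with Sult2a8 (0.91) share KK/HlJ replicate 3.

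Genes that supply the co-substrates, export the conjugates or regulate the pathway were counted by list. Their counts were not tested against the share of all genes. Of the glutathione synthesis and recycling genes 9 of 11 measured passed the F test (28.9% of all genes). Slc7a11, the cystine transporter, ran from 4.40 ± 0.022 in C57BL/6J to 5.59 ± 0.16 in C57L/J (SD, n = 3 each; adjusted p = 4.40e-06), and Dpep1, a dipeptidase that cleaves cysteinylglycine, from 7.80 ± 0.078 in C3H/HeJ to 8.99 ± 0.087 in 129S1/SvlmJ (SD, n = 3 each; adjusted p = 6.60e-07). Of the microsomal and other glutathione enzymes 7 of 12 passed, with Clic6 spanning 0.78 and Clic3 0.77; both belong to the chloride intracellular channel family, whose fold resembles glutathione transferases. Of the sulfate genes 5 of 9 passed: Papss2, which makes the sulfate donor, was highest in 129S1/SvlmJ and lowest in DBA/2J (range 1.03, adjusted p = 0.015), and Slc26a2, a sulfate transporter, spanned 0.64. Of the glucuronate genes 2 of 7 passed, near the share of all genes. Both Ugdh and Gusb, the latter the enzyme that splits glucuronides, were lowest in MRL/MpJ (ranges 0.50 and 0.58, adjusted p = 0.0012 and 2.97e-05).

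Of the exporters 3 of 9 passed, near the 28.9% of all genes. Among them were Abcb1a (range 1.14) and Abcc3 (range 0.57). Among other conjugating enzymes 4 of 11 passed, with Hnmt, which methylates histamine, spanning 0.78 and Nnmt, which methylates nicotinamide, 0.65; the Nnmt call was lost without KK/HlJ replicate 1 or 3 (adjusted p = 0.057 and 0.067). Of the regulators 2 of 11 passed, below that share. Ahr, the receptor for dioxin-like chemicals, was highest in BALB/cJ (9.45 ± 0.10) and lowest in C57L/J (8.79 ± 0.080; SD, n = 3 each; adjusted p = 2.08e-04). Those were the strains with the lowest and the highest Ugt1a6b. Bach1, a repressor of antioxidant genes, spanned 0.31, and its lowest strain was C57L/J as well.

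**Figure D4:**
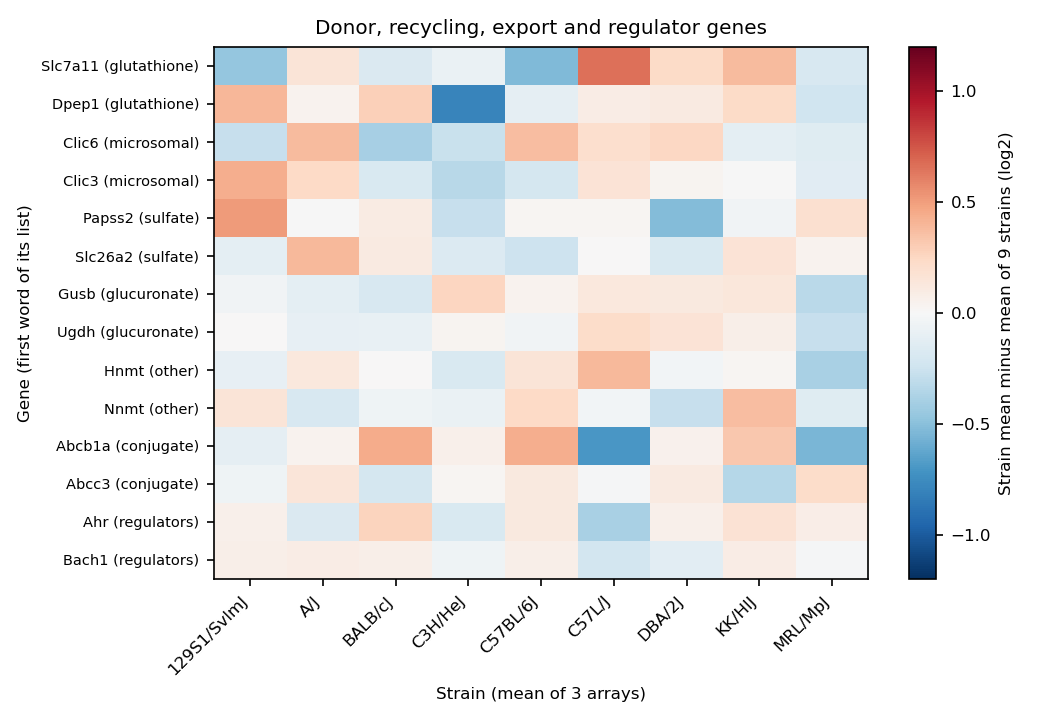
Strain mean minus the mean of the 9 strains (colour, log2 units) for 14 genes of the pathway lists past the F test, with strains as columns. Slc7a11 is high in C57L/J, Dpep1 low in C3H/HeJ, Papss2 high in 129S1/SvlmJ, and Abcb1a and Ahr low in C57L/J.

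For the adenoma classes the strain was the replicate, and the 3 arrays of each were averaged. With 7 strains increased and 2 decreased in severity, 0 of the 60 genes were called by limma (lowest adjusted p = 0.62; 2 of all genes, 0.00988%, were called). With 3 strains increased and 6 decreased in frequency 0 were called (lowest adjusted p = 0.65; 0% of all genes), and between the 3 strains increased in both and the 2 decreased in both 0 were called (lowest adjusted p = 0.51; 0.00494% of all genes). At an unadjusted p under 0.05 there were 10, 3 and 12 genes, against 7.04%, 7.7% and 8.62% of all genes. Without KK/HlJ replicate 3 there were 7, 3 and 8, and the shares of all genes were not computed for that fit. Strain means did not overlap for 5 genes by severity (all genes 6.69%), 1 by frequency (3.92%) and 18 by both (27%). The contrasts share strains, so their values are not independent.

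By frequency Sult1d1 had the largest difference. It was 7.98 ± 0.27 in the 3 increased strains (SD over strain means) and 7.32 ± 0.35 in the 6 decreased ones, a difference of 0.66 with a standard error of 0.20 (unadjusted p = 0.0077, adjusted p = 0.65 in limma's fit of 9 strain means). C57BL/6J, DBA/2J and A/J had strain means of 7.79, 7.86 and 8.29. Of the decreased strains 129S1/SvlmJ, BALB/cJ, MRL/MpJ, C57L/J and KK/HlJ lay at 6.98 to 7.31, but C3H/HeJ at 7.995 overlapped the increased class. Under the same contrast the median difference was 0.20 over 8 club cell genes and 0.25 over 10 ciliated cell genes, none of them called, and their part in the result was not tested. With the 27 arrays taken as independent, which counts mice of 1 strain as separate evidence on the class, Sult1d1 was called (adjusted p = 0.027; 0.776% of all genes). Gstm6 was 0.42 higher in the increased class and Gstt3 0.12 higher, while Ugt3a1, at background, was 0.21 lower with no overlap; none passed the adjustment (adjusted p = 0.65 each). Ugt2b38 differed by 0.13 (adjusted p = 0.66).

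By severity the 5 genes with the smallest p, Ugt2b34, Ugt1a10, Sult2a8, Ugt2a3 and Sult6b2, were lower in the increased strains, by 0.24, 0.38, 0.77, 0.23 and 0.18, and all had strain means below the level of Sry. KK/HlJ is 1 of the 2 decreased strains, and without its replicate 3 the differences were -0.11, -0.42, -0.12, -0.059 and -0.19. With MRL/MpJ left out KK/HlJ alone stood for decreased severity, and Sult2a8 and Gstp3 were then called (adjusted p = 0.0057 and 0.019; 0.262% of all genes). Between the strains increased and decreased in both classes Sult1d1 was 0.73 higher and Gstt3 0.19 higher in the increased strains, and Ugt3a1, Ugt2a3 and Sult2a1 were lower, by 0.27, 0.29 and 0.29. Their adjusted p lay between 0.51 and 0.54.

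**Figure D5:**
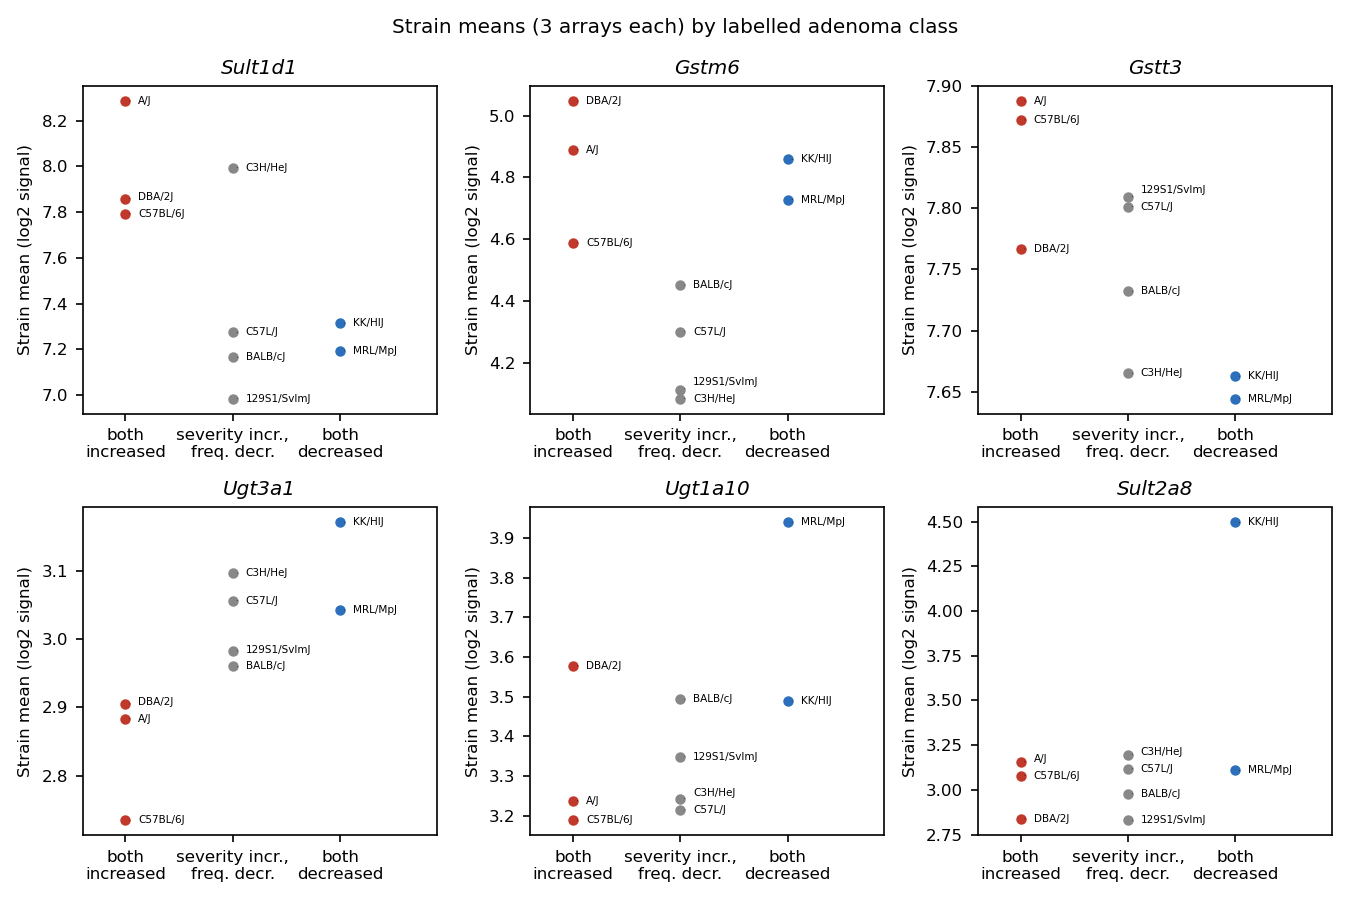
Strain means (vertical axis, log2 signal, 3 arrays each) of 6 genes by the labelled adenoma class of the strain (horizontal axis). For Sult1d1 the strains increased in both classes lie at 7.79 to 8.29 and C3H/HeJ, of mixed class, lies among them at 7.995; for Sult2a8 KK/HlJ alone is high.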

How the data were processed

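Lung RNA was extracted with TRIzol, cleaned with RNeasy and assessed by Bioanalyzer, per the labels' protocols. The deposited values are normalised log2 signals of 21225 probe sets on 27 arrays. The submitters' processing notes name affy without a version, and the sources used here do not state the normalisation. The values were used as deposited. The platform's probe table, whose symbols can be old, named 20239 probe sets with 1 gene each and left 986 unnamed; all 60 members were found in RefSeq's GRCm38.p6 gene table and 53 in its promoter table.

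R 4.3.3 and limma 3.58.1 were used on the whole table: lmFit and eBayes with 1 mean per strain, a moderated F test, 36 strain pairs, and each strain against the mean of the other 8, with the Benjamini-Hochberg adjustment over all named genes and a threshold of 0.05. Pairs also needed a difference of at least 1. Adenoma classes were fitted to the 9 strain means, and the contrast of both classes kept the 4 strains of mixed class as a group of their own. Fits were tested on simulated data. Replicates are separate mice, and the number of arrays limits the precision.

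Members and gene lists were chosen with earlier results of these data known. By rule, values are given for the 15 members with the widest ranges among those past the F test and above the Y-linked genes, up to 3 members higher and 3 lower per strain, the 5 with the smallest p per adenoma comparison, up to 2 genes per pathway list, and the most similar member of each. Other members with values, and Gclc, were named after their values were seen. Alternatives covered normalisation, dim and unnamed probe sets, the prior, array weights, the replicate number, minimum differences, and leaving out each array or strain.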

Additional observations from a re-analysis of the deposited data

Results flagged for a closer look

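Sult1d1 in C3H/HeJ stood apart from the other 5 strains of decreased adenoma frequency: its strain mean was 7.9952, and the other 5 lay between 6.98 and 7.31. The gap divided by the range of the 6 strains was 0.674, above the critical value of Dixon's test for 6 values. Chance gives such a value in about 1 in 20 groups. The test was run for the 5 genes with the smallest p by severity and the 5 by frequency. Only Sult1d1 passed, so chance can account for it. Sult1d1 was also picked by its small p in this same frequency contrast. The 3 C3H/HeJ arrays read 8.18, 7.95 and 7.85, so each of them lay above those 5 strain means.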

How the results depend on the processing

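Among the 73 values of named genes no difference reversed its direction under any alternative run. The ranges of strain means among them, and the 14 counts, have no direction and could not reverse. Of 58 calls on named genes 30 held in every fit that left out an array and 28 were lost in at least 1; those of members are named beside their values. Leaving out arrays for Gsto1 in 129S1/SvlmJ was added after seeing the data. Leaving out an array gave 13 to 19 members past the F test (17 with all arrays), 3 to 6 in a strain pair (5), and against the other 8 strains 3 to 10 in 129S1/SvlmJ (9), 1 to 5 in A/J (3), 2 to 4 in BALB/cJ (3), 0 to 5 in C3H/HeJ (3), 1 to 4 in C57BL/6J (3), 1 to 5 in C57L/J (3), 1 to 3 in DBA/2J (2), 1 to 8 in KK/HlJ (3) and 2 to 8 in MRL/MpJ (7). Leaving out a strain gave 0 to 2 calls by severity, 0 to 1 by both classes and 0 by frequency, the calls arising without MRL/MpJ. Pairs with a minimum difference of 0.5 gave 18 members and with none 28. Shares of all genes were not computed at these minimums. Among fits that left out an array they were computed only without KK/HlJ replicate 3. They were also not computed for other normalisations, dim probe sets left out, array weights or the replicate number as a block. Shifts in those counts may therefore be shared by all genes. In C3H/HeJ quantile normalisation and median centring gave 6 calls each, leaving out dim probe sets 5 and array weights 0; dim probe sets left out gave 1 in C57BL/6J, 5 in C57L/J and 4 in MRL/MpJ, and array weights 5 in A/J and 9 in C57BL/6J; the cause was not tested. Arrays taken as independent gave 1 call by frequency and 2 by both classes (0.776% and 2.35% of all genes). Without KK/HlJ replicate 3, A/J replicate 1 and C3H/HeJ replicate 2 together, an alternative chosen after seeing the data, KK/HlJ had 0 calls. That run also ended the limma calls of Gstk1 and Sult1d1 in C3H/HeJ (adjusted p = 0.051 and 0.13), Gstm1 in A/J (0.056) and Gsto1 in C57L/J (0.054). Gstt1 and Ugt1a7c no longer passed the F test (adjusted p = 0.053 and 0.093). The shares of all genes were not computed for that run. The replicate number as a block (replicate block) gave 15 members past the F test and 5 in a pair, 7 calls in 129S1/SvlmJ and 2 in C3H/HeJ. Among named genes it ended the calls of Gstm1 (F test adjusted p = 0.0512), Sult1a1 in C57L/J (0.0555) and Sult1d1 in C3H/HeJ (0.0569). Same-numbered arrays did not deviate together on average (mean correlation 1e-04, from -0.272 to 0.276), and 11 of 27 were closest to their own number. With deviations taken from means of 3 arrays, these values cannot exclude that the numbers pair some mice. The number of arrays, 3 per strain, and signals near the Y-linked genes limit what the low members can show.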

Other observations

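Gclc, the catalytic subunit of the rate-limiting enzyme of glutathione synthesis, was chosen after its values were seen. Its strain means ran from 8.85 ± 0.11 in 129S1/SvlmJ to 9.93 ± 0.020 in C57BL/6J (SD, n = 3 each; limma F test adjusted p = 1.87e-08). It was 0.70 lower in 129S1/SvlmJ than in the other 8 strains (adjusted p = 4.81e-08), 0.31 lower in BALB/cJ (adjusted p = 0.0023) and 0.51 higher in C57BL/6J (adjusted p = 4.47e-06). C57BL/6J, the strain with the highest Gclc and Gsto1, had the lowest Slc7a11. 129S1/SvlmJ, with the lowest strain means of Gclc, Gsta4 and Sult1d1, had the highest of Gstk1, Gstp1, Gstt1 and Sult1a1. Gstp1 did not pass the F test (adjusted p = 0.076). Close to 129S1/SvlmJ were C57L/J for Sult1a1 (8.60 against 8.63) and KK/HlJ for Gstt1 (9.03 against 9.07). The 129S1/SvlmJ calls of Sult1d1, Gstp1 and Sult1a1 were each lost without some array of that strain.

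The median difference of the 7 Ugt1a genes from the other 8 strains was -0.30 in C57BL/6J, against -0.046 over all genes, and none of the 7 was called higher or lower. Ugt1a7c had its highest strain mean in that strain. Over the 21 pairs of Ugt1a genes the correlation of the 9 strain means ran from -0.48 to 0.90, the highest being Ugt1a1 with Ugt1a5.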
